A study of Mus musculus with 6 samples.

Results

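The 38 genes described here act in the second gap phase (G2) and in mitosis, and were chosen by name: cyclins and their kinase, mitotic kinases, the anaphase-promoting machinery, kinetochore proteins, spindle motors, cytokinesis proteins and mitotic chromosome proteins. They were chosen with earlier results of these data known. All 38 were found by gene name among the 24413 genes of the deposited table. The libraries are bulk RNA-seq of mouse Achilles tendon cells that the labels call Tppp3+. They come from the genotype Tppp3ECE/+;R26RtdT-CreERT2;Scx-GFP, which both groups share, with 3 libraries per group. In the conditioned group the cells were treated for 24 h with medium (1% FBS) conditioned by cultured dorsal root ganglion (DRG) cells, and in the control group with 1% FBS medium for the same time.

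Per the labels, the tendons came from 3 male mice aged 12 weeks, their cells were sorted by gates on GFP and tdT fluorescence, and the lumbar ganglia came from 3 male C57BL/6J mice of the same age. The ganglion cells were grown with the antimitotic agents fluorodeoxyuridine and uridine, each at 20 µM, for 4 to 5 days, and medium with 1% FBS was then put on and harvested daily. Carry-over of these agents, release of factors and use of the medium by the ganglion cells cannot be told apart in this design. Which animal gave which library is not stated in the labels. The p-values therefore rest on library-to-library spread, part of which may be technical. Whole fragments recovered from the deposited values gave 18774552 to 26061237 fragments per library. Tppp3 itself had 0.777 to 1.12 FPKM in conditioned and 0.724 to 1.05 FPKM in control libraries (FPKM, fragments scaled to gene length and library size), so the mean of the labelled marker lay below the filter of 1 FPKM used for testing. The tendon matrix gene Col1a1 averaged 2662 FPKM in conditioned and 3336.5 FPKM in control libraries.

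A dividing cell makes these proteins late in the cycle. Cyclin A and cyclin B activate the kinase CDK1, Polo-like and Aurora kinases build the spindle, the checkpoint kinases hold anaphase back until chromosomes are attached, and the anaphase-promoting complex then marks cyclin B and securin for destruction. The genes are repressed in resting cells by the DREAM complex and activated in G2 by the MuvB core together with B-Myb and FOXM1. Both act through a promoter element called the CHR (cell cycle genes homology region), and the neighbouring CCAAT boxes bind NF-Y. Adult tendon cells divide rarely in the animal, while tendon cells in culture with serum divide.

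Promoter windows of 300 bases, from 250 before to 50 after the transcript start, were read from RefSeq (GRCm38.p6, the same assembly as mm10) for 33 of the 38 genes. Ccna2, Foxm1, Aurkb, Kif20a and Tpx2 were not analysed here for promoter letters. The CHR was searched as TTTGAA, its reverse complement TTCAAA, and TTCGAA, which reads the same on both strands. The CCAAT box was searched as CCAAT and its reverse complement ATTGG. The 4 promoters shown belong to the genes with the lowest adjusted p among those that rose and had a window, and capitals mark CHR and CCAAT matches in the 250 bases before the start.
Ccnb2 promoter, chr9:70421555-70421804, minus strand: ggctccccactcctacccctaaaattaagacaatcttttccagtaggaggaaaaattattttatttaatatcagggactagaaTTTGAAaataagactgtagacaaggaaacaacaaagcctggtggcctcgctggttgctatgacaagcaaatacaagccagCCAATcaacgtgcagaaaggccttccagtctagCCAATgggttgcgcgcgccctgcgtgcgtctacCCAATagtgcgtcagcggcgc
Plk1 promoter, chr7:122159185-122159434, plus strand: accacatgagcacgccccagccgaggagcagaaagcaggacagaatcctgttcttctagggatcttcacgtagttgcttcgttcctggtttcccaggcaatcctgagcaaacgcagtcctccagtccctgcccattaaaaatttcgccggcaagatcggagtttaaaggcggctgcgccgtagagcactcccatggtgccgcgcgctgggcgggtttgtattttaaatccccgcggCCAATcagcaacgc
Anln promoter, chr9:22389207-22389456, minus strand: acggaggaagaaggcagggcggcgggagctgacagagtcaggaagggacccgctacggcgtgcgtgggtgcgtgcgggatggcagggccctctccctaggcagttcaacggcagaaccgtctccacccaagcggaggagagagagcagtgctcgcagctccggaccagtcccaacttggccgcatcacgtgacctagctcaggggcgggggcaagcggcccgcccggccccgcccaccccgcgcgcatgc
Hmmr promoter, chr11:40733438-40733687, minus strand: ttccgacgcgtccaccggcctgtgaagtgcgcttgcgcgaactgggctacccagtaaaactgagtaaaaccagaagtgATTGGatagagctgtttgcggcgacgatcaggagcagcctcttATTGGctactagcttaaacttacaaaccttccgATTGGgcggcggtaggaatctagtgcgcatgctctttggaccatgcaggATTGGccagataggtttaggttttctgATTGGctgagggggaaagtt

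In all 4 genes the CHR match nearest the RefSeq start lay just after it, and these starts lie somewhat upstream of the GENCODE gene starts given further on. These sites are shown as 30 bases each, with the CHR letters in capitals and positions counted from 1 at the first base that RefSeq gives as transcribed.
Ccnb2 site, from position -8 to 22, chr9:70421533-70421562, minus strand: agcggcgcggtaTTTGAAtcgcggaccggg
Plk1 site, from position 19 to 48, chr7:122159453-122159482, plus strand: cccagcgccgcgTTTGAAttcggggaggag
Anln site, from position 10 to 39, chr9:22389168-22389197, minus strand: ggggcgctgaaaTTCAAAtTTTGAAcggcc
Hmmr site, from position -4 to 26, chr11:40733412-40733441, minus strand: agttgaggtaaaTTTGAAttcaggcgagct
Ccnb2 had 3 CCAAT matches before the start, Plk1 had 1, Hmmr had 5 and Anln had none in the window, where its CHR was a pair of matches 1 base apart.

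Of the 33 member promoters, 26 (78.8%) held a CHR match, against 19.4% of 27025 RefSeq genes with a window of the same length. A CHR match that began within 50 bases of the start was found in 24 of 33 (72.7%), against 5.29% of all genes. These positions rest on the RefSeq starts: the 30 bases after the start were found whole in a GENCODE transcript of the gene for 24 of 35 member windows, alternative starts included. At least 1 CCAAT box was found in 27 of 33 (81.8%), against 37.9% of all genes, and at least 2 in 20 of 33 (60.6%), against 12.2%. Of the other G2/M genes listed below, 42 of 58 promoters (72.4%) held a CHR match, and of the DNA replication and S phase genes 9 of 45 (20%). A CHR match was in all 7 promoters of members that rose with conditioned medium and in 19 of 26 promoters of members that did not pass. The difference between these shares was not tested. These are descriptions of letters, and binding was not measured.

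**Figure D1:**
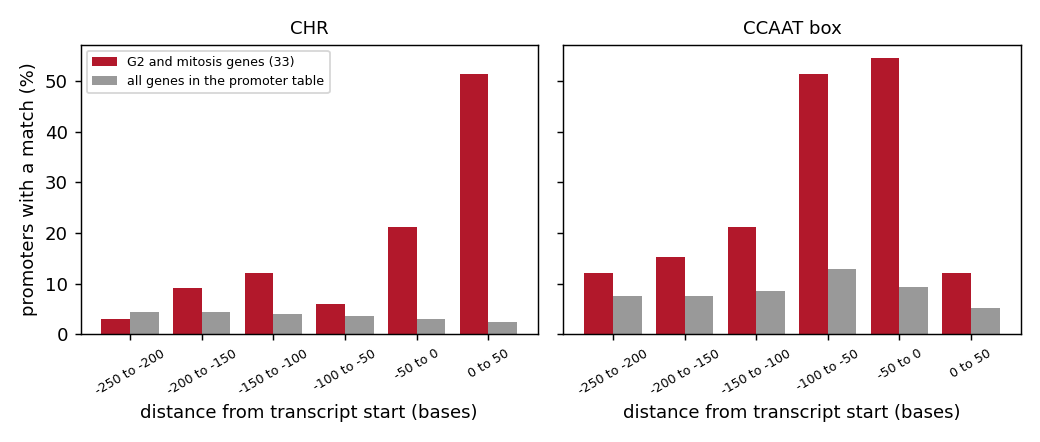
Share of promoters (%) with a CHR match (left) or a CCAAT box (right) by distance of the match from the transcript start in bins of 50 bases, for 33 G2 and mitosis genes (red) and 27025 genes (grey). CHR matches of the G2 and mitosis genes lay mostly in the 50 bases after the start (51.5%, against 2.4% of all genes), and their CCAAT boxes in the 100 bases before it.

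With conditioned medium 9 of the 38 genes rose and 0 fell. The 9 were Ccnb2, Kif20a, Hmmr, Plk1, Tpx2, Cdc20, Anln, Cdca3 and Kif2c, by a ratio of mean FPKM of 1.20 to 1.41. The test was limma on log2(FPKM + 1) over the 11678 genes whose mean reached 1 FPKM, with a Benjamini-Hochberg adjusted p below 0.05, and all 38 members passed that filter. Of all genes tested, 4.04% were called higher and 2.49% lower, and the share of members called higher was 23.7% (9 of 38). The members were chosen with earlier results of these data known. Comparisons of members with all genes, here and below, are therefore descriptions and no independent test. No member was lower at an unadjusted p below 0.05 (0 of 38) or by voom (0 of 38), and voom called 11 higher. Among all 11678 genes tested, 982 were lower at that unadjusted p, and voom called 476 lower and 651 higher. The 11 left out Cdca3 and added Ccna2, Prc1 and Top2a. In bulk RNA, more cells in G2 or mitosis and more RNA per such cell cannot be told apart.

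The remaining 29 members did not pass, but their log2 fold changes were also above 0, from 0.03 (Aurka) to 0.27 (Bub1). All 38 members thus had a positive log2 fold change, against 52% of all genes tested. The median over the members was 0.15, against 0.0052 over all genes tested. Every conditioned library lay above every control library for 25 members (65.8%), against 14.3% of all genes tested, and the groups overlapped for the other 13. No member had every conditioned library below every control library, which held for 11.6% of all genes tested.

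The count of 9 moved with single libraries. It was 2 without conditioned replicate 1, 4 without conditioned replicate 2 and 5 without conditioned replicate 3. Among the controls it was 7 without replicate 1, 4 without replicate 2 and 5 without replicate 3. Fewer genes overall were called then too, from 394 to 676 instead of 763. Ccnb2 and Plk1 passed in all 6 of these fits, Kif20a in 5, Cdc20, Tpx2 and Anln in 2, Hmmr in 1, and Cdca3 and Kif2c in none, where their adjusted p lay between 0.0546 and 0.129.

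**Figure D2:**
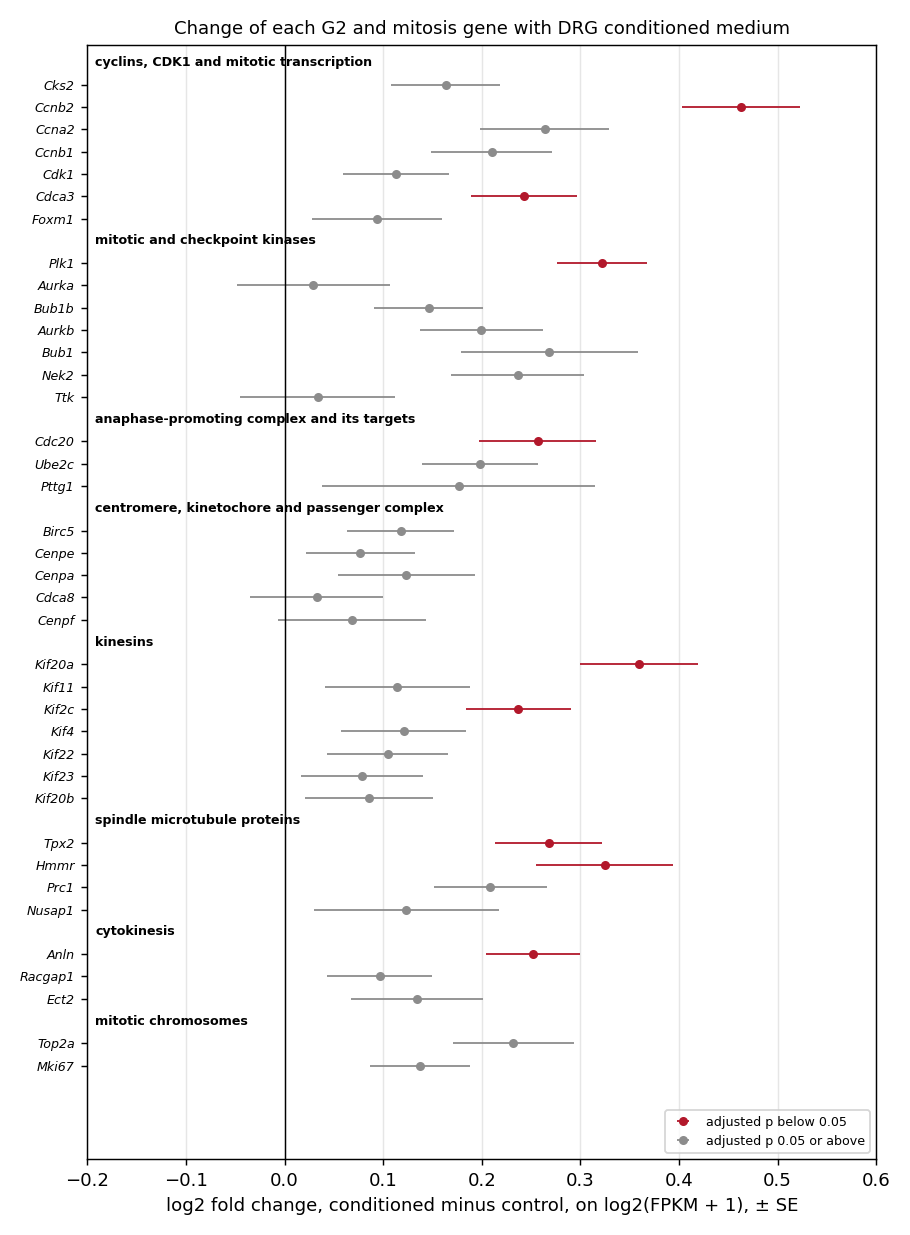
Log2 fold change (conditioned minus control, on log2(FPKM + 1)) ± SE of each of the 38 genes by role, with red points for an adjusted p below 0.05 in limma and grey for the rest. All points lie above 0, from 0.03 to 0.46, and Ccnb2 stands highest.

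Summed over the 38 genes, the level was 251, 246 and 248 FPKM in conditioned replicates 1, 2 and 3, against 209, 213 and 208 FPKM in control replicates 1, 2 and 3. The sums did not overlap, and their ratio was 1.18. The highest of the 6 values fell in conditioned replicate 1 for 12 genes, in replicate 2 for 8 and in replicate 3 for 15, and in a control library for the remaining 3 (replicate 1 for 1 and replicate 3 for 2). The lowest of the 6 fell in control replicate 1 for 13 genes, in replicate 2 for 7 and in replicate 3 for 17, and in a conditioned library for 1. Set against the control mean, the median member stood 0.19, 0.16 and 0.16 higher on the log2(FPKM + 1) scale in conditioned replicates 1, 2 and 3.

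**Figure D3:**
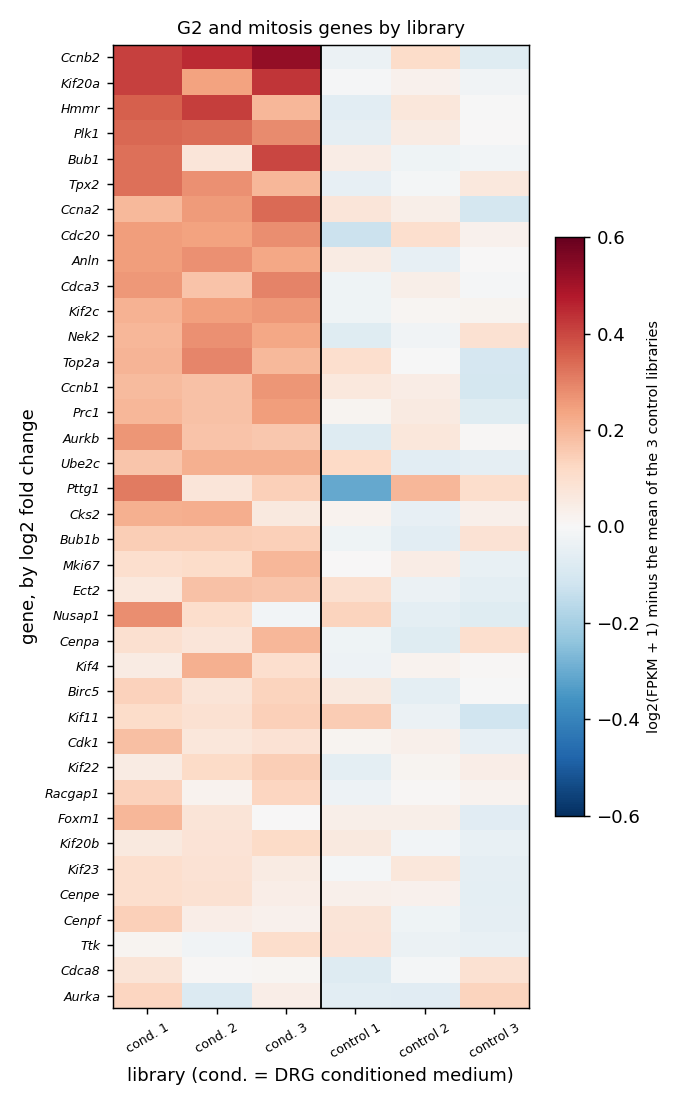
Colours show log2(FPKM + 1) of each gene in each library minus the mean of the 3 control libraries, with genes ordered by log2 fold change and conditioned libraries on the left. The 3 conditioned columns are red over nearly the whole length, while the control columns show no shared direction apart from low single values such as Pttg1 in control replicate 1.

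The counts by role given from here on rest on few genes each, where 4.04% of all genes tested were called higher. Among cyclins and their partners, 2 of 7 genes rose and 5 did not pass. Ccnb2 encodes cyclin B2, a CDK1 activator found at the Golgi (chromosome 9 from 70407692 to 70421547, mm10, minus strand). It had 14.7, 15.1 and 16.0 FPKM in conditioned libraries, against 10.5, 11.8 and 10.2 FPKM in control libraries. The lowest conditioned library exceeded the highest control by more than the range within either group. Its means were 15.3 ± 0.684 and 10.8 ± 0.807 FPKM (SD, n = 3 each), and its log2 fold change of 0.46 ± 0.06 SE was the largest of the 38 (limma adjusted p = 0.00295). Cdca3, a protein that helps cells enter mitosis (chromosome 6 from 124829547 to 124833701), had 6.33, 5.92 and 6.54 FPKM in conditioned libraries, against 5.02, 5.28 and 5.10 FPKM in control libraries. The groups did not overlap, and the log2 fold change was 0.24 ± 0.05 SE (limma adjusted p = 0.0352).

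Ccna2, which encodes cyclin A2, lay nearest to the threshold among the members that missed it. It had 6.88, 7.22 and 7.71 FPKM in conditioned libraries, against 6.23, 6.05 and 5.39 FPKM in control libraries. The groups did not overlap, and its log2 fold change was 0.26 ± 0.07 SE (limma adjusted p = 0.0547). Its level is uncertain, since 12.5% of its exon bases are shared with the opposite-strand gene Exosc9, which averaged 5.06 FPKM. Cks2, a small CDK-binding subunit, was the most abundant of this role and had 19.3, 19.4 and 17.2 FPKM in conditioned libraries, against 16.7, 15.9 and 16.8 FPKM in control libraries. Conditioned replicate 3 stood close to the controls, and the log2 fold change was 0.16 ± 0.06 SE (limma adjusted p = 0.143). Of the 50-base stretches of Cks2 transcripts 29.7% also occur in other genes, mostly in Gm15452, so its level is uncertain. Ccnb1, the partner of CDK1 at mitotic entry, averaged 6.99 ± 0.266 FPKM in conditioned and 5.91 ± 0.439 FPKM in control libraries (limma adjusted p = 0.0949), and 23.4% of its stretches also occur in other genes, mostly in Ccnb1-ps. Cdk1 itself and Foxm1, the transcription factor of the G2 genes, had log2 fold changes of 0.11 and 0.09 (limma adjusted p = 0.30 and 0.496).

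Cyclin B2 and cyclin B1 are paralogues that both activate CDK1, and their log2 fold changes were 0.46 ± 0.06 SE and 0.21 ± 0.06 SE. The difference between these values was not tested.

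**Figure D4:**
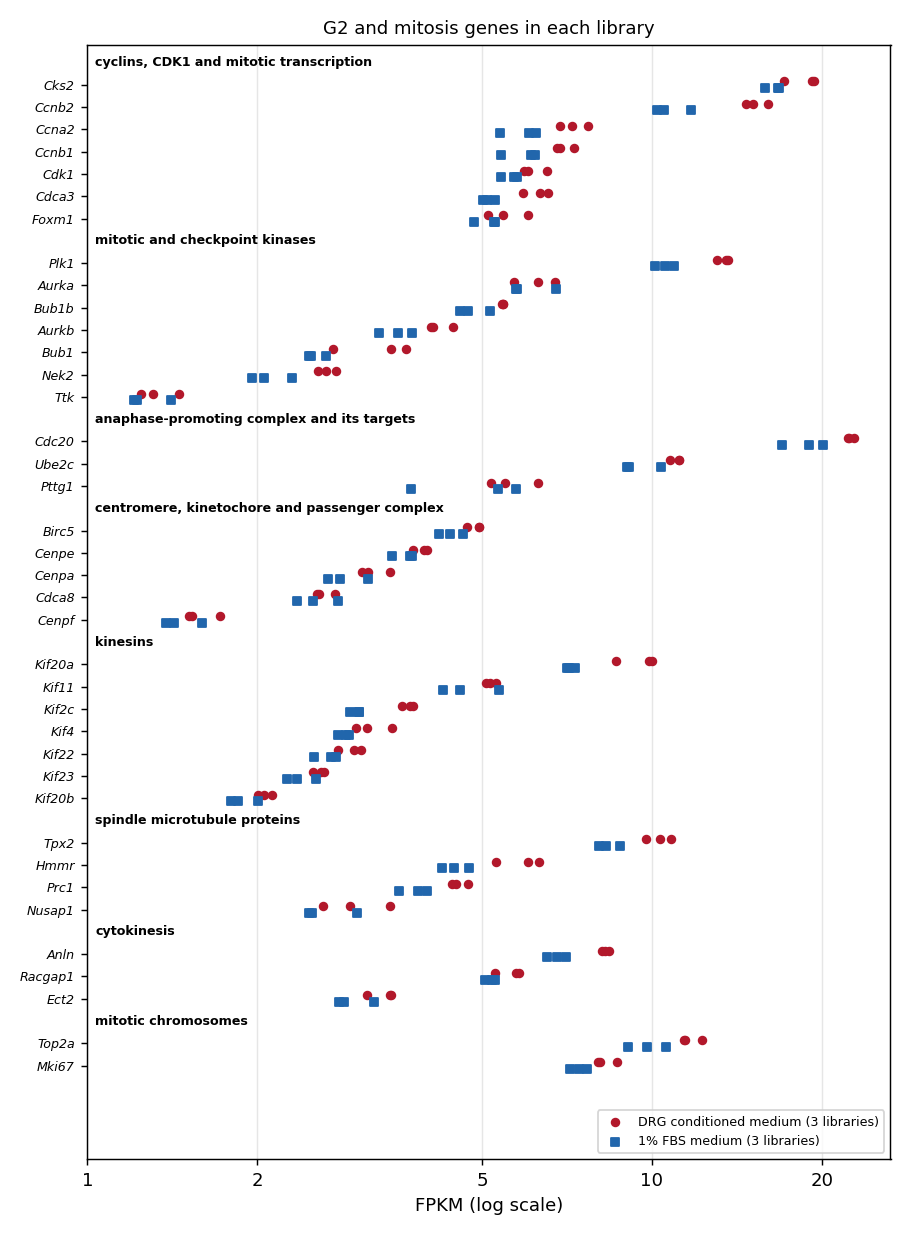
FPKM (log axis) of the 38 genes by role in each of the 3 conditioned libraries (red circles) and 3 control libraries (blue squares). For Ccnb2, Plk1, Kif20a and Anln the red and blue points stand clear of each other, while for Aurka, Ttk and Cdca8 they are mixed.

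Of the 7 mitotic and checkpoint kinases, 1 rose. Plk1, the Polo-like kinase that drives centrosome maturation and spindle assembly (chromosome 7 from 122159439 to 122169873, plus strand), had 13.7, 13.6 and 13.1 FPKM in conditioned libraries, against 10.1, 11.0 and 10.6 FPKM in control libraries. Both groups were tight and far apart, with means of 13.4 ± 0.318 and 10.6 ± 0.417 FPKM (SD, n = 3 each) and a log2 fold change of 0.32 ± 0.05 SE (limma adjusted p = 0.00469). Of the 50-base stretches of Plk1 transcripts 10.4% also occur in other genes, with Plk-ps1 (0.40 FPKM on average) as the main partner. Bub1, the checkpoint kinase, had a log2 fold change of 0.27 with a wider SE of 0.09, since conditioned replicate 2 had 2.72 FPKM where the other conditioned libraries had 3.45 and 3.67 FPKM (limma adjusted p = 0.139). It passed without conditioned replicate 2 (limma adjusted p = 0.0403). Nek2, a centrosome kinase, Aurkb, the kinase of the passenger complex, and Bub1b, a checkpoint protein, had log2 fold changes of 0.24, 0.20 and 0.15 with groups that did not overlap (limma adjusted p = 0.0896, 0.119 and 0.194).

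Among the kinases the log2 fold changes of Aurka, which encodes Aurora A, and Ttk lay closest to 0. These members were picked after their values were seen. Aurka had 6.74, 5.69 and 6.28 FPKM in conditioned libraries, against 5.77, 5.75 and 6.76 FPKM in control libraries. The groups overlapped over nearly their whole range, and the log2 fold change was 0.03 ± 0.08 SE (limma adjusted p = 0.883). Its direction turned without conditioned replicate 1 (-0.02) and without control replicate 1 (-0.0032) or 2 (-0.0047). Ttk, a spindle checkpoint kinase, had the lowest level of the 38, with 1.34 ± 0.108 FPKM in conditioned and 1.28 ± 0.111 FPKM in control libraries (SD, n = 3 each), and its log2 fold change was 0.03 (-0.0026 without conditioned replicate 3). It was counted from as few as 115 fragments in a library. A miss of the threshold does not show that these levels were equal.

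The anaphase-promoting complex is served here by its activator Cdc20, its conjugating enzyme Ube2c and its target Pttg1 (securin), of which 1 of 3 rose. Cdc20 (chromosome 4 from 118432901 to 118437352, minus strand) was the most abundant of the 38, with 22.4, 22.3 and 22.9 FPKM in conditioned libraries, against 17.0, 20.1 and 19.0 FPKM in control libraries. The conditioned libraries lay closer together than the controls, and the log2 fold change was 0.26 ± 0.06 SE (limma adjusted p = 0.0430). It did not pass with quantile normalization (limma adjusted p = 0.0519), with no trend and no robust prior (0.0834) or with no filter on low values (0.124). Of the 50-base stretches of Cdc20 transcripts 10.6% also occur in other genes, with Gm7856 as the main partner. Ube2c averaged 11.0 ± 0.221 FPKM in conditioned and 9.51 ± 0.772 FPKM in control libraries (limma adjusted p = 0.101), and 22.8% of its exon bases are shared with the opposite-strand gene Tnnc2, which averaged 0.0384 FPKM. Pttg1 had 3.75 FPKM in control replicate 1 but 5.76 and 5.33 FPKM in the other controls, which fell within its conditioned values of 5.18 to 6.30 FPKM (limma adjusted p = 0.555).

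Genes of the centromere, kinetochore and passenger complex had the lowest median of the 8 roles. In limma 0 of 5 passed, with 0 of 5 at an unadjusted p below 0.05 and 0 by voom. Of all 11678 genes tested, 4.04% were called higher in limma, 2290 had such an unadjusted p and voom called 651 higher. With 5 genes, counts of 0 do not set this role apart from all genes tested. The median of the 5 log2 fold changes of this role was 0.08. Birc5, which encodes survivin, a subunit of the passenger complex, had 4.95, 4.70 and 4.93 FPKM in conditioned libraries, against 4.63, 4.19 and 4.39 FPKM in control libraries. The groups did not overlap but stood only 0.12 ± 0.05 SE apart on the log2 scale (limma adjusted p = 0.287). Cenpa, the centromeric histone, Cenpe, a kinetochore motor, and Cenpf, a large kinetochore protein, had log2 fold changes of 0.12, 0.08 and 0.07. Cdca8, which encodes borealin, had 2.62 ± 0.103 FPKM in conditioned and 2.55 ± 0.214 FPKM in control libraries (SD, n = 3 each), and its log2 fold change of 0.03 became -0.0070 without control replicate 1.

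Of the 7 kinesins, 2 rose. Kif20a, the motor that brings the passenger complex to the central spindle, had 9.87, 8.65 and 10.0 FPKM in conditioned libraries, against 7.15, 7.32 and 7.07 FPKM in control libraries. The controls were nearly equal and all conditioned libraries were well above them, with a log2 fold change of 0.36 ± 0.06 SE (limma adjusted p = 0.0108, and 0.0543 without conditioned replicate 1). Of its exon bases 29.3% are shared with the opposite-strand gene Cdc23, and the strand setting of the counting is not given, so its level is uncertain. Cdc23 itself had a log2 fold change of -0.02 (limma adjusted p = 0.856).

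Kif2c, a kinesin that takes microtubules apart at centromeres (chromosome 4 from 117159639 to 117182639), had 3.61, 3.73 and 3.78 FPKM in conditioned libraries, against 2.92, 3.02 and 3.03 FPKM in control libraries. Both groups spanned a narrow range without overlap, and the log2 fold change was 0.24 ± 0.05 SE (limma adjusted p = 0.0372). The other kinesins had log2 fold changes from 0.08 to 0.12 and did not pass. Among these, Kif11, the motor that separates spindle poles, had 5.35 FPKM in control replicate 1, above every conditioned library (5.08 to 5.30 FPKM), while Kif4 and Kif22, which act on chromosome arms, did not overlap between groups. Kif4 averaged 3.03 FPKM and shares 15.1% of its exon bases with the opposite-strand gene Pdzd11, which averaged 15.3 FPKM. Pdzd11 had a log2 fold change of -0.18 (limma adjusted p = 0.0782), so the level and change of Kif4 are uncertain.

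Of the 4 spindle microtubule proteins, 2 rose, Tpx2 and Hmmr, which passed in 2 and 1 of the 6 fits that left out a library. Tpx2, which activates Aurora A on the spindle (chromosome 2 from 152847964 to 152895321), had 10.8, 10.3 and 9.77 FPKM in conditioned libraries, against 8.06, 8.30 and 8.80 FPKM in control libraries. The groups were separate, and the log2 fold change was 0.27 ± 0.05 SE (limma adjusted p = 0.0248). Hmmr, which encodes a hyaluronan receptor that inside the cell binds spindle microtubules (chromosome 11 from 40701395 to 40733422), had 6.03, 6.30 and 5.30 FPKM in conditioned libraries, against 4.25, 4.74 and 4.46 FPKM in control libraries. Conditioned replicate 3 was the lowest of its group but still above every control, and the log2 fold change was 0.32 ± 0.07 SE (limma adjusted p = 0.0314). Tpx2 rose while Aurka, whose product it activates, did not pass, and the difference was not tested.

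Prc1, which bundles microtubules of the central spindle, had 4.50, 4.43 and 4.72 FPKM in conditioned libraries, against 3.85, 3.99 and 3.57 FPKM in control libraries. The groups were separate, but its log2 fold change of 0.21 ± 0.06 SE missed the threshold (limma adjusted p = 0.0792). Of its exon bases 11.1% are shared with the opposite-strand gene Rccd1, which averaged 1.19 FPKM. Nusap1, a spindle protein, ranged from 2.61 to 3.43 FPKM in conditioned and from 2.47 to 3.00 FPKM in control libraries, with overlap.

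In cytokinesis 1 of 3 genes rose. Anln encodes anillin, the scaffold of the cleavage furrow (chromosome 9 from 22332012 to 22389188, minus strand). It had 8.27, 8.41 and 8.17 FPKM in conditioned libraries, against 7.06, 6.53 and 6.81 FPKM in control libraries. The conditioned libraries lay within a narrow band above all controls, and the log2 fold change was 0.25 ± 0.05 SE (limma adjusted p = 0.0179). Ect2, the exchange factor that activates RhoA at the furrow, and Racgap1, its partner, had log2 fold changes of 0.13 and 0.10 with overlapping groups.

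The 2 genes of mitotic chromosomes did not pass in limma, though both did so at an unadjusted p below 0.05, and voom called 1, Top2a. Such an unadjusted p was found for 2290 of all 11678 genes tested. Top2a, which encodes the topoisomerase that untangles sister chromatids, had 11.5, 12.3 and 11.4 FPKM in conditioned libraries, against 10.6, 9.80 and 9.08 FPKM in control libraries. The groups were separate, with a log2 fold change of 0.23 ± 0.06 SE (limma adjusted p = 0.0692), and the gene passed without control replicate 1. Mki67, the proliferation antigen that coats mitotic chromosomes, averaged 8.26 ± 0.349 FPKM in conditioned and 7.42 ± 0.265 FPKM in control libraries (SD, n = 3 each, limma adjusted p = 0.181).

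Other genes of the cell cycle were taken from 6 lists of textbook members. Of 70 tested genes in a further list of G2/M genes, 3 were called higher in limma, 0 lower and 67 did not pass, where 4.04% of all genes tested were called higher. Voom called 651 of all 11678 genes tested higher and 476 lower, and of these 70 it called 6 higher and 0 lower. Their median log2 fold change was 0.11, 59 of 70 had a positive value, and the groups were separate and higher with conditioned medium for 23 (32.9%, against 14.3% of all genes tested). The 3 were Oip5, a centromere protein, with 1.53 ± 0.0988 FPKM in conditioned and 0.892 ± 0.175 FPKM in control libraries, Cdc25c, the phosphatase that activates CDK1, with 2.53 ± 0.212 and 1.82 ± 0.175 FPKM, and Knstrn, a kinetochore protein, with 3.79 ± 0.294 and 2.88 ± 0.191 FPKM in conditioned and control libraries (SD, n = 3 each). Their log2 fold changes were 0.42, 0.32 and 0.30 (limma adjusted p = 0.0319, 0.0488 and 0.0407). Adding 1 to FPKM shrinks log2 fold changes of genes with low levels, and with 0.1 added instead Oip5 had 0.73. Knstrn and Cdc25c passed in 0 of the 6 fits that left out a library, with adjusted p up to 0.149, and Oip5 in 1. Oip5 had a control mean under 1 FPKM and entered the test only through its conditioned libraries, so its call supports nothing on the list. It shares exon bases with Nusap1 on the opposite strand.

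Of 50 tested DNA replication and S phase genes, 0 passed in limma. An unadjusted p below 0.05 was found for 9, of which 0 were lower, and voom called 1 higher. Among all 11678 genes tested, 2290 had such an unadjusted p, 982 of them lower, and voom called 651 higher. The median log2 fold change of the S phase list was 0.02, with 36 of 50 above 0, against 52% of all genes tested. The groups were separate and higher with conditioned medium for 11 of 50 (22%, against 14.3% of all genes tested). Pcna, the replication clamp, averaged 16.3 ± 0.956 FPKM in conditioned and 16.2 ± 0.713 FPKM in control libraries, and Mcm2, a helicase subunit, 3.76 ± 0.290 and 3.59 ± 0.231 FPKM (SD, n = 3 each). Tyms, the thymidylate synthase that fluorodeoxyuridine inhibits, had 2.49 ± 0.282 FPKM in conditioned and 2.61 ± 0.0977 FPKM in control libraries (limma adjusted p = 0.76). These 3 genes were picked after their values were seen, as a replication clamp, a helicase subunit and the drug's target. They do not stand for the whole list. Over the whole list, log2 fold changes ran from -0.23 to 0.35. Its summed level was 263 to 267 FPKM in conditioned and 245 to 257 FPKM in control libraries, a ratio of 1.05. Whether the S phase list differs from the G2 and mitosis genes was not tested.

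**Figure D5:**
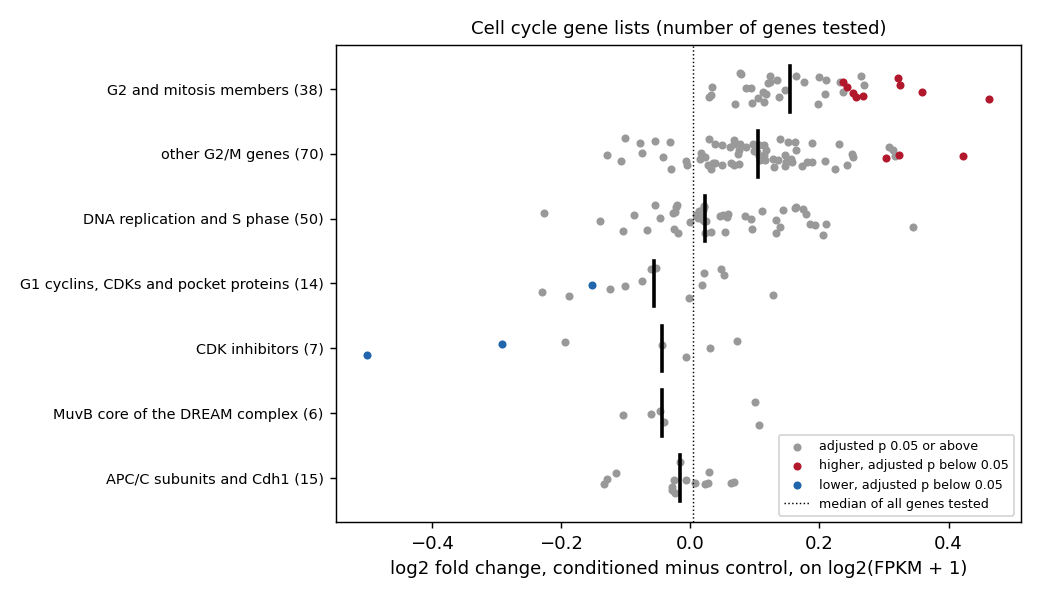
Log2 fold change (conditioned minus control, on log2(FPKM + 1)) of each tested gene in the G2 and mitosis set and in 6 further cell cycle lists, with black bars at each median and a dotted line at the median of all genes tested. The medians run from 0.15 for the G2 and mitosis genes and 0.11 for the other G2/M genes to 0.02 for S phase genes and below 0 for the 4 other lists.

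Of 7 tested CDK inhibitors, 2 fell in limma and 2 by voom. Among all 11678 genes tested, 2.49% were called lower in limma and 476 genes by voom. Cdkn1c, which encodes the inhibitor p57, had 6.72, 6.93 and 6.85 FPKM in conditioned libraries, against 9.38, 10.1 and 10.8 FPKM in control libraries. The groups were far apart, with a log2 fold change of -0.50 ± 0.06 SE (limma adjusted p = 0.00143). Cdkn2b, which encodes p15, averaged 91.3 ± 3.00 FPKM in conditioned and 112 ± 4.89 FPKM in control libraries (SD, n = 3 each), with a log2 fold change of -0.29 ± 0.04 SE (limma adjusted p = 0.00589). Cdkn1a, the p53-induced inhibitor p21, had 138 ± 1.90 FPKM in conditioned and 142 ± 2.30 FPKM in control libraries and did not pass (limma adjusted p = 0.498).

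Among 14 tested G1 cyclins, G1 kinases and pocket proteins, 1 fell and 0 rose in limma, against 2.49% of all genes called lower. Of these 14 genes 4 were lower at an unadjusted p below 0.05, voom called 3 lower, and neither found one higher. Among all 11678 genes tested, 982 were lower at that unadjusted p and voom called 476 lower. The gene that fell in limma was Ccnd1, which encodes cyclin D1, with 84.6, 81.1 and 83.6 FPKM in conditioned libraries, against 92.0, 93.4 and 92.2 FPKM in control libraries. The groups were separate, with a log2 fold change of -0.15 ± 0.03 SE (limma adjusted p = 0.0299), and it passed in 1 of the 6 fits that left out a library (adjusted p up to 0.141). Of 6 tested MuvB core and partner genes 0 passed in limma (1 at an unadjusted p below 0.05, 0 by voom), and their median was -0.04. Of 15 tested subunits and regulators of the anaphase-promoting complex 0 passed in limma (3 at an unadjusted p below 0.05, 0 by voom), and their median was -0.02. An unadjusted p below 0.05 was found for 2290 of all 11678 genes tested.

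Tendon markers moved with the medium in the same libraries: 7 of 11 tested were lower in limma, against 2.49% of all genes tested, and 0 higher (voom called 7 lower and 1 higher). Their summed level over the 12 in the table was 4307 to 4414 FPKM in conditioned and 5338 to 5471 FPKM in control libraries. Of the other markers, 8 of 13 listed for DRG neurons were in the table, the rest were not analysed here, and 7 of these were below the filter, with a highest value of 0.934 FPKM (Isl1). Tubb3, a tubulin that is not confined to neurons, had 16.5 ± 0.653 FPKM in conditioned and 22.6 ± 1.20 FPKM in control libraries (SD, n = 3 each). Summed levels were 2.19 to 3.45 FPKM in conditioned and 3.33 to 4.00 FPKM in control libraries for 7 glia markers, 3.21 to 4.14 and 3.67 to 5.16 FPKM for 6 macrophage and leukocyte markers, and 0.147 to 0.248 and 0.206 to 0.303 FPKM for 4 endothelial markers. Of 3 tested mural and muscle markers 1 was higher (Myh11), and the 4 in the table summed to 59.7 to 63.7 FPKM in conditioned and 56.7 to 59.6 FPKM in control libraries. None of the markers in the table was at 0 in all libraries. The part of these levels in the rise of the G2 and mitosis genes was not tested.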

How the data were processed

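The authors deposited 1 table of FPKM per gene and library, named so in the file header, and per the submitters' processing notes CASAVA, HISAT2 2.0.5 and mm10 were used. No source used here names the counting tool or its strand setting, and per the labels' protocols the poly-T selected libraries were either directional or not. Dividing the values of each gene, scaled for depth, by their common step gave whole fragments for 24413 of 24413 genes (within 0.01 fragment). A gene read in only 1 library passes this check whatever its value. Factors shared by all counts of a gene were then set with GENCODE exon lengths. The implied length equalled the exon length for 23558 of 24403 genes found there, a match that this step favours. The fragments gave the library totals and a voom alternative. FPKM values were tested as log2(FPKM + 1) with limma 3.58.1 in R 4.3.3 (trend and robust prior, Benjamini-Hochberg over the 11678 genes whose mean reached 1 FPKM). A check on simulated data came first, but it set no mark for recovering changes as small as those of the members. Levels are means ± SD over 3 libraries, and precision is limited by fragment number, 115 to 2411 per member and library.

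The members and lists were chosen with earlier results of these data known. Values in every library are given for members past an adjusted p of 0.05, the most abundant of each role and the 3 nearest misses, and other members were picked after their values were seen. Exon overlaps, coordinates and shared stretches of 50 bases come from GENCODE M21, and promoters from RefSeq. Fits that used other filters, scalings, pseudocounts, priors, a replicate block or voom, or left out 1 library, are given in the closing section.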

Additional observations from a re-analysis of the deposited data

How the results depend on the processing

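Over all alternatives the results for single genes kept direction and side of the threshold in 515 cases, lost the call in 81, gained it in 8 and changed sign in 5. The 515 include genes that passed in neither fit, so they do not measure how stable the calls were. Of 14 alternatives, Ccnb2 and Plk1 kept the call in 14, Kif20a in 12, Anln in 9 and Tpx2 in 8. Cdc20 and Hmmr kept it in 6 of 14, Cdca3 in 5 of 14 and Kif2c in 5 of 13. The sign changed for Aurka (-0.0206 without conditioned replicate 1, -0.0032 without control replicate 1, -0.0047 without control replicate 2, and at most 0.0953), for Ttk (-0.0026 without conditioned replicate 3, and at most 0.0739) and for Cdca8 (-0.0070 without control replicate 1, and at most 0.0787 with a library left out). Without the low filter, which tests more genes, 492 genes, 4 members and 2 genes of the further cell cycle lists were called, and Cdc20, Cdca3, Hmmr, Kif2c and Tpx2 lost the call. With no trend and no robust prior Cdc20 and Hmmr lost it. With a library left out, 394 to 676 genes, 2 to 7 members and 2 to 6 genes of the further lists were called, and the member median lay between 0.149 and 0.185. Voom called 12 genes of the further lists, against 6, and the member median was 0.22 with a minimum of 5 FPKM, which tested 20 members. The cause was not tested for any of these changes. Over all genes tested, same-numbered libraries did not deviate together (r = -0.095, -0.008 and -0.048). This does not show whether the same-numbered libraries were handled together. A fit with the replicate number as a block called 390 genes, 2 members (Ccnb2 and Plk1) and 1 gene of the further lists. The members with the fewest fragments have the widest relative counting error.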
